A study of Mus musculus with 36 samples.

Results

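Methylation of 10 genes whose proteins write, read or remove DNA methylation was described here in mouse liver. They were Dnmt1, Uhrf1, Dnmt3a, Dnmt3b, Dnmt3l, Tet1, Tet2, Tet3, Tdg and Zfp57, chosen by name from 21418 autosomal protein-coding genes. Each gene was taken from 5 kb upstream of its start to 1 kb past its end in the mm9 assembly and divided into windows of 500 bp. The intervals covered 579240 bp and 7725 CpGs with counts, in 1139 windows that held a CpG, of 4254058 such windows in the series. The animals were 20 weeks old and belonged to 8 groups of 3. Parents, as sires and dams, were of 2 inbred strains, C57BL/6N (B6) or C3H/HeN (C3), and the rest were male and female offspring of both crosses between them. B6C3F1 mice had a B6 dam and a C3 sire, and C3B6F1 mice a C3 dam and a B6 sire. Parents were mated at 10 weeks of age, so the dams had borne and nursed litters, while the F1 females were virgins. Dams and sires therefore differ in sex as well as in litters, and dams and virgin females differ in inbred or hybrid genotype as well.

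In mammals a methyl group is placed on the cytosine of CpG dinucleotides. DNMT3A and DNMT3B place new marks, with DNMT3L as a partner that has no catalytic activity of its own. DNMT1, guided by UHRF1 to hemimethylated DNA behind the replication fork, copies marks after each division. The TET proteins oxidize methylcytosine, and TDG, a DNA glycosylase, excises oxidized products so that repair restores an unmethylated cytosine. ZFP57 is a zinc finger protein that binds methylated imprinting control regions and helps to keep their marks. Promoters rich in CpGs are mostly unmethylated in somatic tissue, whereas gene bodies are mostly methylated.

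The stretches that carried the differences described below are printed as the + strand of mm9, 5′ to 3′, with every CG in capitals. Each was picked as the short span, within its window or run of windows, with the largest summed difference. Agreement in direction among its CpGs follows in large part from that choice. The first 3 held CpGs that were lower in dams. The first lies in Dnmt3a, 31.2 kb from the gene start, and its 5 CpGs were all lower in dams than in sires. The second is intronic sequence of Tet3 with 6 CpGs, all lower in dams, and the third, intronic in Dnmt3a, has 4 CpGs, 3 of them lower in dams.
Dnmt3a chr12:3837105-3837367: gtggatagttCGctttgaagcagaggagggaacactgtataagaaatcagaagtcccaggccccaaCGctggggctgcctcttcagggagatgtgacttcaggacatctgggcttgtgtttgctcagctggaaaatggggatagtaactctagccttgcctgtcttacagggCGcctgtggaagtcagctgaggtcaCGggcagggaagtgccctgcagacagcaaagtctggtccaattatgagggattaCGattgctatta
Tet3 chr6:83358754-83358898: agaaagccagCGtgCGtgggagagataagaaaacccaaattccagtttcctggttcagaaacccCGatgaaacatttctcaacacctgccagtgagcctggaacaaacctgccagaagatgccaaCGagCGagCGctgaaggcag
Dnmt3a chr12:3894122-3894289: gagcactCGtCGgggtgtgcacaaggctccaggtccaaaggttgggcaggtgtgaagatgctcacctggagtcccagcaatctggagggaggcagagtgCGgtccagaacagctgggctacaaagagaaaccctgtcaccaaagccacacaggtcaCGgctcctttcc

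The other 2 stretches differed between the parental strains. All 15 CpGs of the Dnmt3a stretch, by an internal start of the gene, were higher in B6 parents, as were both CpGs of the Zfp57 stretch. The Zfp57 window around that stretch has 9 CpGs, of which 5 were higher in B6 and 3 higher in C3.
Dnmt3a chr12:3891881-3892174: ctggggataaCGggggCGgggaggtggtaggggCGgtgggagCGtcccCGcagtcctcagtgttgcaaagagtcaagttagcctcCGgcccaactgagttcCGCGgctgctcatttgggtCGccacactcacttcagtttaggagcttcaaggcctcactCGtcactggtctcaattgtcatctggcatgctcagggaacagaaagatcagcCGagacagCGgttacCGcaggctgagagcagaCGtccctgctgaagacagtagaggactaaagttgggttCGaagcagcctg
Zfp57 chr17:37139085-37139126: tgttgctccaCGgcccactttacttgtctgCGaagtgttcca

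Whole-genome bisulfite sequencing had counted methylated and unmethylated reads at each CpG of each animal. Each animal had from 365740739 to 619888157 such counts on autosomes, a mean depth of 19.4 to 32.8 reads at a CpG. Methylation over all of these CpGs was 75.0% to 77.1% in the 6 dams and 75.9% to 77.5% in the other 18 animals. The B6 dams had 75.3%, 75.7% and 75.0%, below all of those 18, and the C3 dams 76.3%, 77.1% and 77.0%. Depth on chromosome X relative to autosomes was 0.600 in C3B6F1 male 1, against 0.477 to 0.521 in the 11 other males and 0.893 to 0.988 in females. That male was kept, and leaving it out changed 1 count, given below. Promoters of 8 hepatocyte genes were at 21.5% to 51.3% (median 29.0%), and those of 4 leukocyte genes at 76.2% to 85.7%. Markers of Kupffer cells, the liver macrophages, were at 83.1% and 84.2% (2 of 3 measured), those of endothelium at 3.32% to 78.2% and those of neurons at 2.44% to 70.8%. Of 21 measured promoters of tissue markers, 16 had a lower mean in dams, by at most 3.89 points, and the ranges of dams and other animals overlapped at all 21. The samples were pieces of liver, so a change in the share of cell types and a change within cells cannot be told apart.

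Of the 1139 member windows, 679 were tested, for which no fewer than 5 CpGs were needed, with 30 reads or more in each animal. Windows with fewer than 5 CpGs numbered 451, and 9 more had too few reads. Mean methylation was below 20% in 46 of the tested windows, from 20% to 80% in 117 and above 80% in 516. In Dnmt1 77 of 86 windows were above 80%, whereas Dnmt3a had 43 of its 142 windows between 20% and 80%. Group means within a window differed by little, with a median range among the 8 groups of 4.00 percentage points over the 679 windows.

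**Figure D1:**
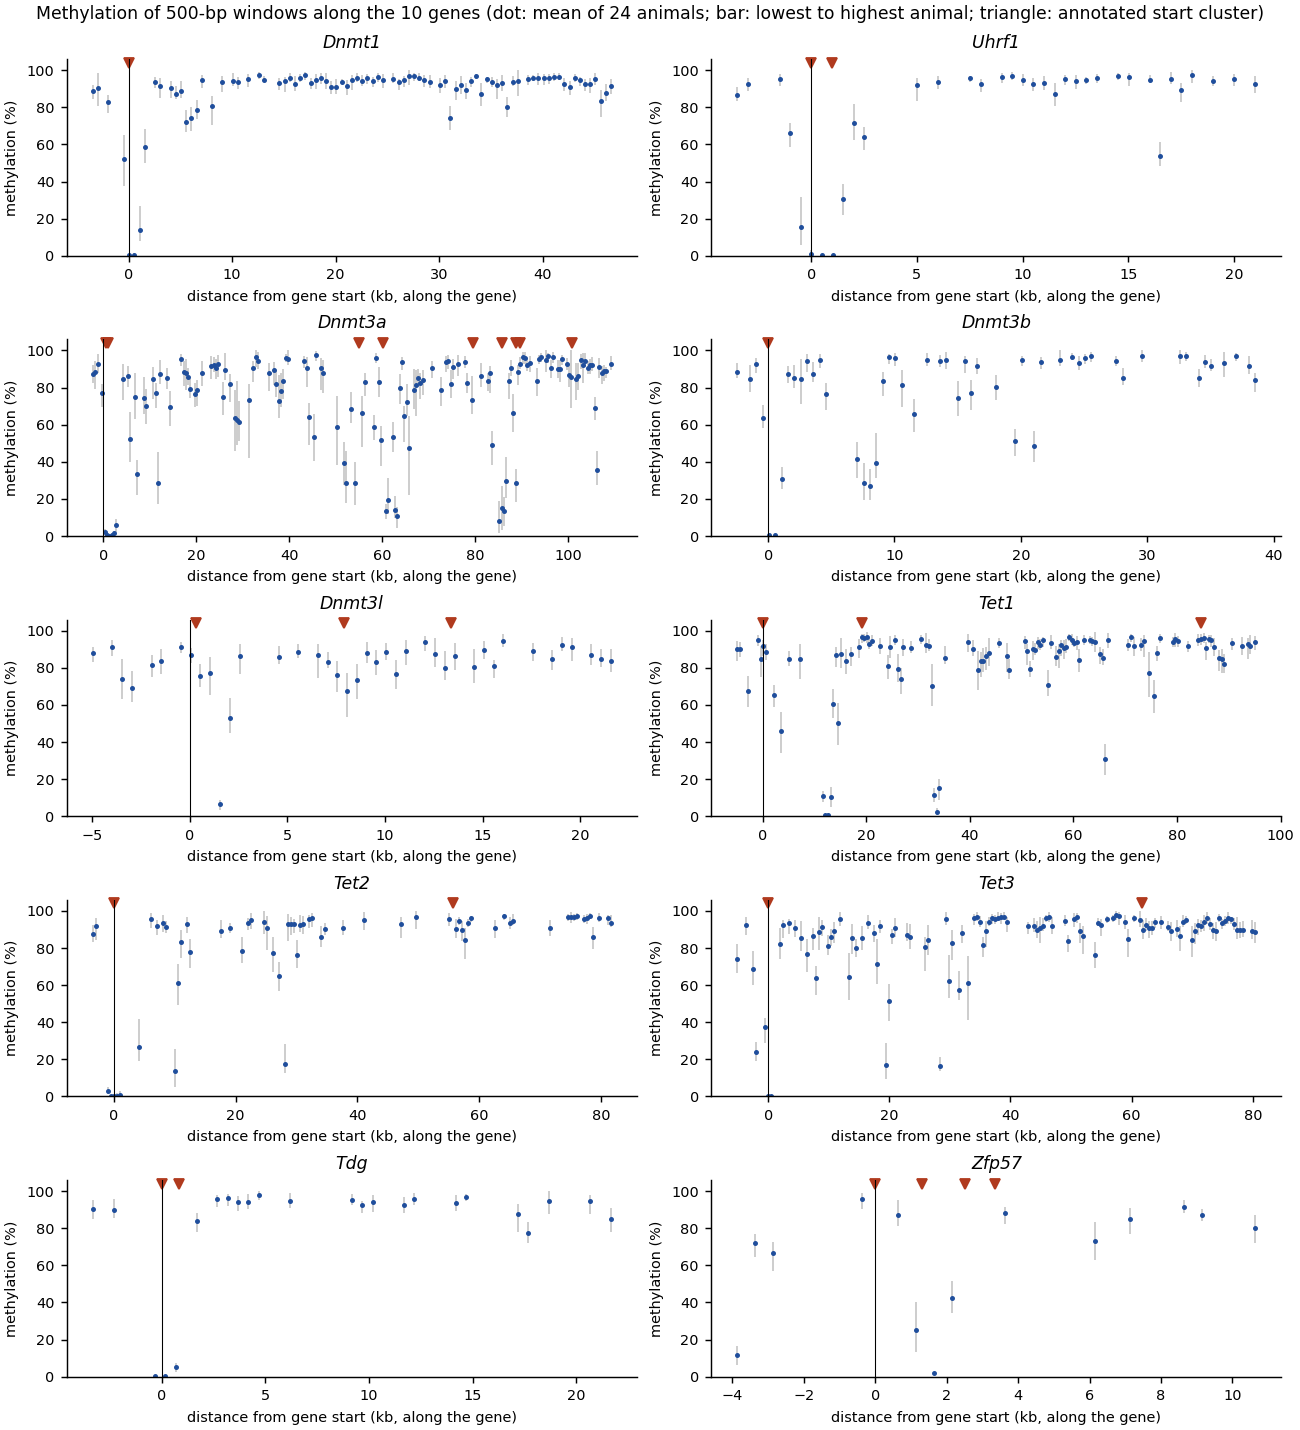
Mean methylation (percent, vertical axis) of each tested 500-bp window against its distance from the gene start (kb, along the gene) for the 10 genes. Dots are means of 24 animals, bars run from the lowest to the highest animal, and triangles mark annotated start clusters. Levels fall near 0 at the first start of Dnmt1, Uhrf1, Dnmt3b, Tet2, Tet3 and Tdg, whereas Tet1 and Dnmt3l stay high there. Tet1 is low 11.4 kb and 32.9 kb inside the gene.

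Promoters were taken from 1000 bp upstream to 500 bp downstream of a cluster of start sites of coding transcripts, and the 10 genes had 29 such clusters, numbered from the first base of each gene. The main starts of the maintenance pair were low. Dnmt1 start 1 had 11.5% (7.52% to 18.2% over 24 animals) and Uhrf1 starts 1 and 2 had 9.83% and 1.59%. The Uhrf1 promoters overlap each other, as do Dnmt3a starts 1 and 2, Tdg starts 1 and 2, and Zfp57 starts 2 and 3. Gene bodies, taken without the first 500 bp, were at 90.3% in Dnmt1 (chr9:20711650-20757317, ENSMUSG00000004099.8) and 75.2% in Uhrf1 (chr17:56442744-56462909).

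Among the de novo enzymes, Dnmt3a (chr12:3806007-3914443) had the most start clusters, 9. Start 2, from which the transcript of 908 codons begins, was at 0.761% (0.202% to 1.25%), and start 1, in the same CpG-rich stretch, at 15.3%. Start 6, 85.7 kb into the gene, begins the transcript of 689 codons that encodes the short isoform DNMT3A2, and was also low, at 11.1% (2.84% to 18.0%). The other 6 Dnmt3a starts lay between 51.2% and 87.8%. Dnmt3b (chr2:153475186-153513466) had a single start at 21.6%, with 12.9% to 30.9% over animals. Dnmt3l (chr10:77504692-77526367), which is known mainly from germ cells and early embryos, was methylated at all 3 starts, at 84.7%, 76.5% and 83.8%. The windows below 20% in every animal inside the Dnmt3l interval numbered 1, chr10:77506001-77506500, with 6.64% over 28 CpGs, and it holds the annotated starts of the neighbouring gene Aire, which runs on the opposite strand.

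The 3 Tet genes differed from each other at their annotated starts. Tet2 start 1 (gene at chr3:133126643-133207354) was at 0.406%, with 0.107% to 0.661% over animals, and Tet3 start 1 (chr6:83312367-83391672) at 11.8%. Tet1 start 1 (chr10:62267318-62361866) was at 90.9% (87.9% to 93.2%), and Tet1 starts 2 and 3 were at 95.7% and 95.4%. Inside Tet1 a run of 4 windows, chr10:62348501-62350500, was nevertheless at 4.56% over 107 CpGs in the 24 animals, with 3.45% in the lowest and 5.59% in the highest. It is intronic, 11.4 kb from the annotated gene start, and holds no annotated start. A second run, chr10:62328001-62329000, had 6.59% over 28 CpGs and holds the start of Tet1-002, a transcript not classed as coding. Tet2 start 2 and Tet3 start 2, which lie 55.7 kb and 61.8 kb inside their genes, were at 91.0% and 92.3%.

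Tdg (chr10:82092573-82113544) was low at both starts, at 2.19% and 2.36%. Zfp57 (chr17:37138108-37147580) was methylated at start 1, at 91.8%, and low at starts 2 and 3, which lie 1.32 kb and 2.50 kb further in, with 12.6% and 19.9%. Start 4 was at 86.0%. The Zfp57 body had the lowest level of the 10 bodies, 58.5%, and it contains those starts. The other bodies ran from 71.6% in Dnmt3a to 90.3% in Dnmt1. In all, 35 member windows were below 20% in every animal, of which 23 lay in the promoters and 12 in 7 runs outside them. The remaining runs were 2 in Dnmt3a, 1 beside Tet2 start 1, and 1 that began 4.11 kb upstream of Zfp57 with 11.8% over 5 CpGs.

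**Figure D2:**
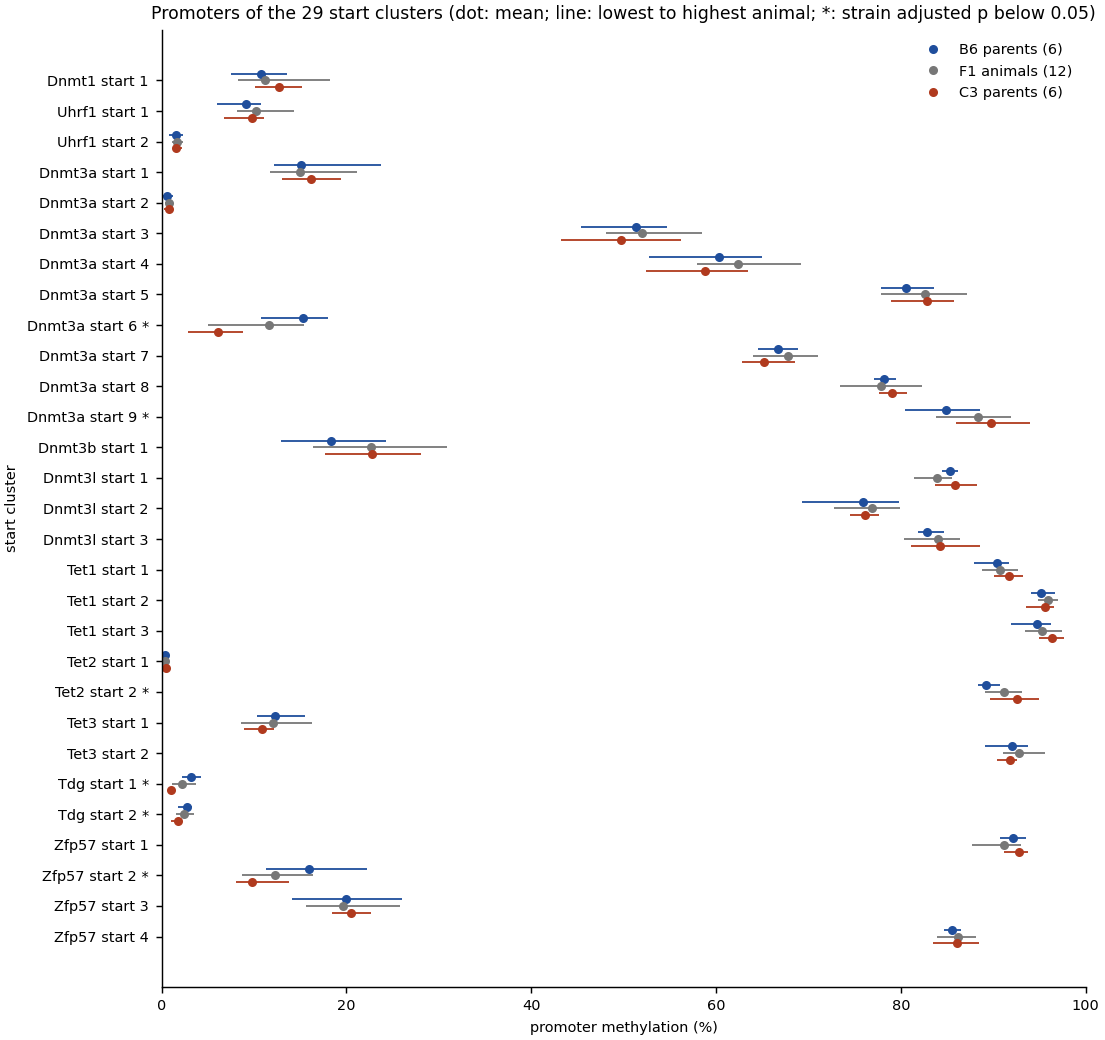
Promoter methylation (percent, horizontal axis) at the 29 start clusters of the 10 genes (vertical axis). Dots are means of 6 B6 parents, 12 F1 animals and 6 C3 parents, lines run from the lowest to the highest animal, and an asterisk marks a strain difference at adjusted p below 0.05. The 6 marked starts include Dnmt3a start 6, where the lines of the B6 and C3 parents do not overlap.

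The study had asked whether sex and life experience alter methylation, and sires were compared with dams. In limma, 1 member window of 679 reached an adjusted p below 0.05 with a difference of at least 20 points, against 0.104% of all windows tested. It lies in Dnmt3a, at chr12:3837001-3837500, within introns of the coding transcripts and inside an exon of the noncoding transcript Dnmt3a-002. It holds 8 CpGs, covered by 18.2 to 36.5 reads per CpG in each animal. The B6 sires had 81.3%, 72.7% and 79.9%, and the B6 dams 57.7%, 41.8% and 59.8%. The C3 sires had 77.7%, 78.8% and 81.3%, and the C3 dams 62.2%, 61.5% and 65.0%. Every dam lay below every sire. The F1 males had 73.9%, 79.9% and 80.1% in B6C3F1 and 72.7%, 81.1% and 79.6% in C3B6F1. The virgin F1 females had 75.4%, 78.4% and 78.9% in B6C3F1 and 78.9%, 81.7% and 76.0% in C3B6F1. The 6 dams (41.8% to 65.0%) did not overlap the 18 other animals (72.7% to 81.7%), and virgin females lay with the males.

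At this Dnmt3a window sires exceeded dams by 20.6 points, a log2 ratio of methylated to unmethylated reads higher by 1.40 ± 0.17 (SE), with a Benjamini-Hochberg adjusted p of 2.58e-06 in limma. Dams were below virgin F1 females by a difference of -20.2 points (log2 ratio -1.36 ± 0.17, adjusted p 2.29e-05 in limma). This was 1 of 679 member windows against 0.0198% of all windows. Both comparisons use the same 6 dams and are not independent. The means were 77.9% and 53.1% in B6 sires and dams, and 79.3% and 62.9% in C3 sires and dams. The difference was 8.52 points larger in B6, but that difference between strains was not called (adjusted p 0.962). F1 males and females differed by -0.326 points (adjusted p 0.994), and sires and F1 males by 0.709 points (adjusted p 0.984). All single omissions of an animal kept both adjusted p under 0.05. The sire-dam difference then ranged from 17.8 to 22.3 points, under 20 without B6 male 1 or B6 female 2, and the dam-virgin difference from -21.9 to -17.4 points, short of 20 without B6 female 2, C3 female 2, B6C3F1 female 3 or C3B6F1 female 2. With the grid moved by 250 bp neither comparison reached 20 points in Dnmt3a, and the window chr12:3837251-3837750 differed by 14.5 and -14.3 points (adjusted p 0.00185 and 0.0116).

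Single CpGs in and beside this Dnmt3a window did not contribute equally. They were taken between positions 3836951 and 3837500, a span that begins left of the window and is longer than the printed sequence. All 10 CpGs of the span were lower in dams than in sires, 7 of them by at least 10 points. At 4 of them no dam overlapped any other animal. This span was chosen for its low dams, so these counts describe it and are not a separate result. The same counts over all CpGs were not made. The first CpG of the printed sequence, at 3837115, had 86.0% in sires and 51.2% in dams. The next, at 3837171, was at 11.7% in dams (3.70% to 17.9% over the 6) and at 56.2% in sires, 54.2% in F1 males and 55.2% in virgin females, with 26.3% to 72.7% over the 18 animals. The last CpGs of the window, at 3837449 and 3837455, had 88.7% and 86.5% in dams against 93.4% and 94.9% in sires. The CpG at 3837171 was the lowest in dams, and the difference narrowed towards the right end of the window.

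**Figure D3:**
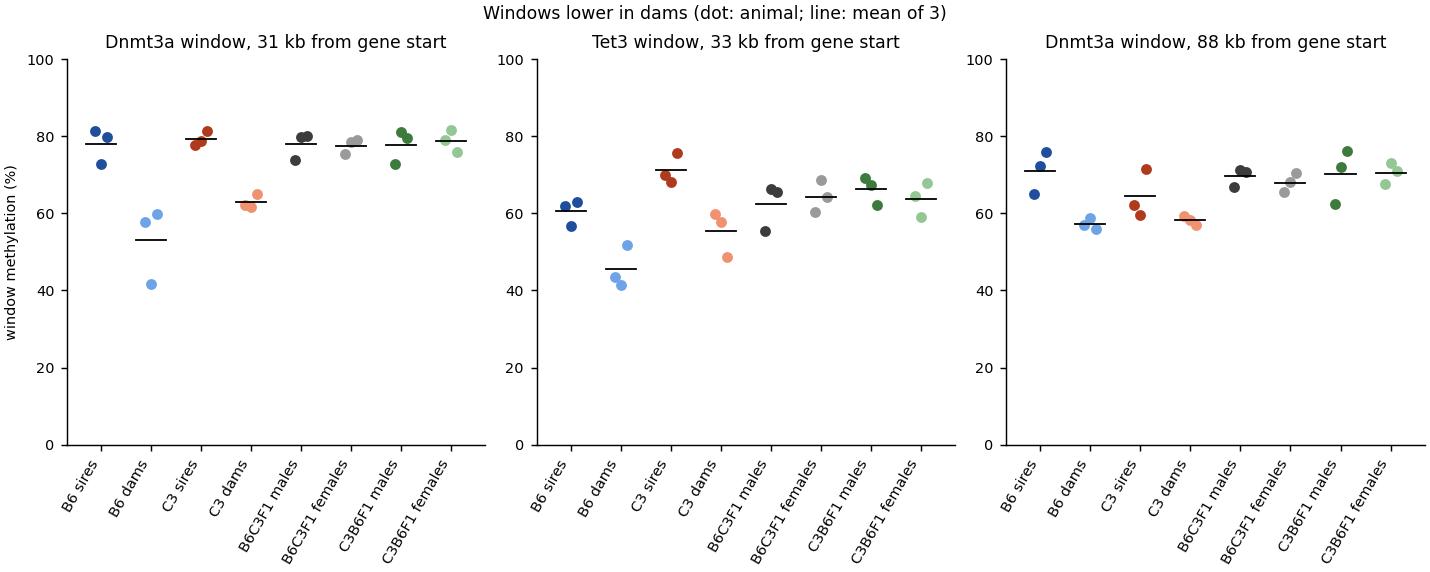
Methylation (percent, vertical axis, from 0 to 100) of 3 windows in the 8 groups (horizontal axis). Dots are animals and lines are means of 3. In the Dnmt3a window 31 kb from the gene start the dams lie from 41.8% to 65.0% and all other animals from 72.7% to 81.7%. The dams are also low in the Tet3 window, where they overlap other animals, and in the second Dnmt3a window.

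Tet3 held a second window of this kind, chr6:83358501-83359000, in an intron 32.9 kb from the gene start, with 9 CpGs. The B6 sires had 61.9%, 56.7% and 62.9%, and the B6 dams 43.5%, 41.3% and 51.9%. The C3 sires had 70.0%, 68.1% and 75.6%, and the C3 dams 59.9%, 57.9% and 48.6%. Dams lay below the sires of their own strain in both strains. F1 animals had 55.5%, 66.3% and 65.6% in B6C3F1 males, 60.3%, 68.6% and 64.1% in B6C3F1 females, 69.2%, 67.3% and 62.2% in C3B6F1 males, and 64.6%, 59.0% and 67.8% in C3B6F1 females. Dams ranged from 41.3% to 59.9% and overlapped the 18 other animals, which ranged from 55.5% to 75.6%. Sires exceeded dams by 15.4 points (log2 ratio 0.93 ± 0.16, adjusted p 7.63e-04), and dams differed from virgin females by -13.6 points (log2 ratio -0.80 ± 0.16, adjusted p 0.0179). The latter was above 0.05 without B6 female 1 or 2, C3 female 3, B6C3F1 female 2 or C3B6F1 female 3, with an adjusted p of up to 0.0851. The same window was 10.3 points lower in B6 than in C3 parents, a strain difference of -10.3 (adjusted p 0.0115). Fitted as 2 groups of 6 animals, none of these comparisons passed, with adjusted p of 0.0588 for sires and dams, 0.151 for dams and virgin females and 0.194 for strain. F1 males and females differed by 0.265 points (adjusted p 0.995).

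The 6 CpGs in the right part of the Tet3 window carried its difference. The last CpG of the printed sequence, at 83358887, was at 84.6% in sires and 49.3% in dams. The CpG at 83358879 was at 44.7% and 21.1%, and that at 83358764 at 54.5% and 32.4%. The 3 CpGs at the left end had 86.3%, 89.9% and 78.4% in sires and 91.9%, 88.8% and 82.2% in dams. With the grid of windows moved by 250 bp, the window chr6:83358751-83359250 had a sire-dam difference of 19.9 points (adjusted p 3.81e-06) and a dam-virgin difference of -17.3 points (adjusted p 2.58e-04).

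**Figure D4:**
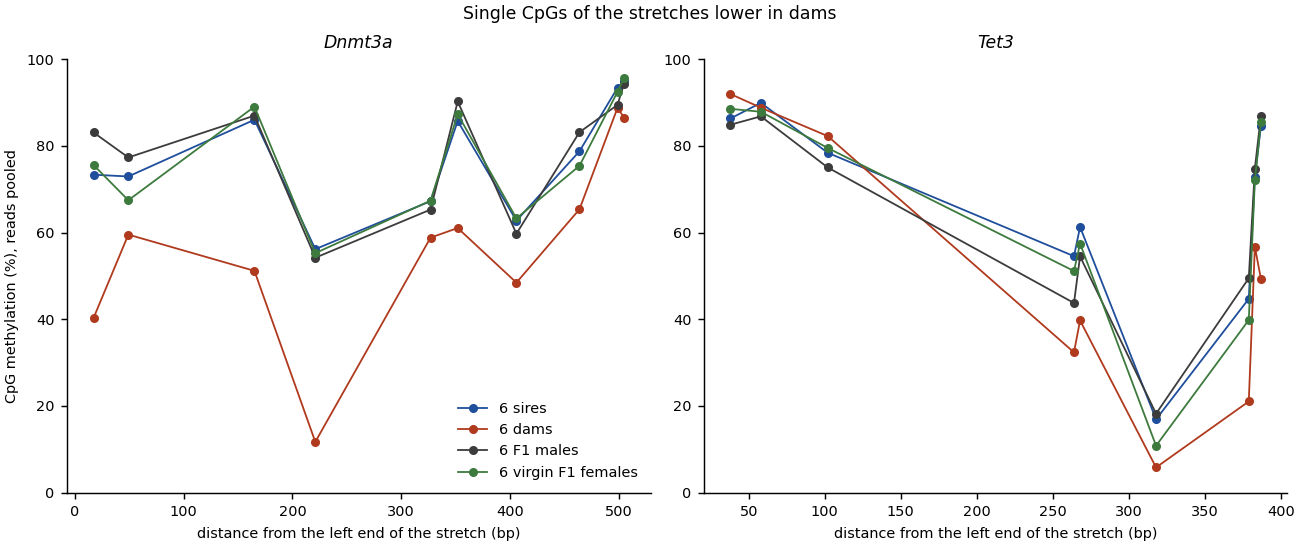
Methylation of single CpGs (percent, reads of 6 animals pooled, vertical axis) against distance in bp from the left end of the stretch, for Dnmt3a and Tet3. Lines join the CpGs of sires, dams, F1 males and virgin F1 females. In Dnmt3a the dams reach 11.7% at 1 CpG, and in Tet3 the dams are lower at the 6 CpGs on the right.

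The third window with an adjusted p below 0.05 in both comparisons lies in a Dnmt3a intron at chr12:3894001-3894500, inside the promoter interval of start 7, with 6 CpGs. The B6 sires had 65.1%, 72.2% and 75.8%, the B6 dams 56.9%, 58.8% and 56.0%, the C3 sires 62.3%, 59.6% and 71.4%, and the C3 dams 59.3%, 58.4% and 56.9%. The F1 males had 66.9%, 71.3%, 70.8%, 62.4%, 72.1% and 76.3%, and the virgin F1 females 65.6%, 68.0%, 70.4%, 67.5%, 73.1% and 71.0%, with B6C3F1 first. The dams (56.0% to 59.3%) lay below the other 18 animals (59.6% to 76.3%), although the lowest C3 sire, at 59.6%, nearly met the highest dam. The sire-dam difference was 10.0 points (adjusted p 0.0404) and the dam-virgin difference -11.5 points (adjusted p 0.0430). Both sat close to the threshold, and their adjusted p rose above 0.05 in 12 and 15 of 31 alternative settings. The first did so without any parent other than B6 male 1 and C3 male 2 (adjusted p up to 0.145), and the second without any dam, any virgin female but C3B6F1 female 1, or 1 of B6 male 2, B6C3F1 male 3 and C3B6F1 male 2 (adjusted p up to 0.134). With the grid moved by 250 bp, neither comparison passed at the overlapping windows. The sire-dam differences there were 3.57 and 4.91 points (adjusted p 0.434 and 0.427), and the dam-virgin differences -3.14 and -10.3 points (adjusted p 0.721 and 0.116). Of its 6 CpGs 4 were lower in dams than in sires, 2 of them by at least 10 points. In pooled reads, with no test, the CpG at 3894221 was at 65.9% in sires and 41.5% in dams, and that at 3894278 at 81.5% and 58.6%.

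In total, 4 member windows had an adjusted p below 0.05 between sires and dams, against 0.974% of all windows, and 3 between dams and virgin females, against 0.181%. All 4 were lower in dams, a direction found in 0.462% of all windows between sires and dams and, for the 3, in 0.149% between dams and virgin females. In each comparison 3 of them differed by at least 10 points, against 0.573% and 0.136% of all windows. Of the 4, 2 are in Dnmt3a and 2 in Tet3. The fourth, upstream of Tet3 at chr6:83395001-83395500, differed by 4.57 points (adjusted p 0.0261), and was above 0.05 without B6 male 3, B6 female 2 or 3, C3 male 1 or 3, or C3 female 2 (adjusted p up to 0.103) and when fitted as 2 groups of 6 animals (adjusted p 0.172). The median difference between sires and dams was 0.0349 points over the 679 windows and 0.520 points over all windows. In limma, 60 member windows (8.84%) had an unadjusted p below 0.05 between sires and dams, beside 11.6% of all windows. Between dams and virgin females 61 (8.98%) had one, beside 7.94% of all windows. No member promoter was called in either comparison. Over all promoters 0.887% and 0.216% were called. The limma fit had 1 of 29 member promoters between sires and dams and 3 of 29 between dams and virgin females at an unadjusted p below 0.05, where 9.75% and 7.27% of all promoters had one. With single animals left out, the first of these counts ranged from 0 (without C3 female 1) to 2, and the second from 2 to 4.

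Zfp57 was the 1 gene body of 10 called between sires and dams, where 17.3% of all bodies were called, 13.6% as higher in sires. B6 sires had 61.4%, 59.7% and 66.3%, B6 dams 57.8%, 56.2% and 53.2%, C3 sires 58.7%, 57.8% and 59.5%, and C3 dams 52.9%, 57.7% and 57.5%. The difference was 4.68 points (adjusted p 0.0403), and every dam lay below every sire of its strain, narrowly in C3. The call did not survive the omission of any of 8 animals in turn, namely B6 males 1 and 3, B6 females 2 and 3, C3 males 1, 2 and 3, and C3 female 1, with an adjusted p of up to 0.109. Between dams and virgin females 0 of the 10 bodies were called by limma, against 4.54% of all bodies, 1 had an unadjusted p below 0.05, against 18.0%, and Zfp57 differed by -3.17 points (adjusted p 0.282). The unadjusted count was not stable, at 0 without B6 female 3 and 2 without B6 male 2 or some other animals.

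Strain was compared in the 12 parents, to ask which differences go with genotype. No member window differed by 20 points at an adjusted p below 0.05 in limma, where 0.494% of all windows did, and 105 of the 679 (15.5%) had an unadjusted p below 0.05, beside 18.9% of all windows. With no minimum difference, 27 windows had an adjusted p below 0.05, 10 higher in B6 and 17 higher in C3, beside 6.63% of all windows, 2.34% higher in B6 and 4.29% higher in C3. At least 10 points separated the strains in 6 of the 27, against 2.39% of all windows. The median difference, B6 minus C3, was -0.567 points over member windows and -0.634 over all windows. With the windows tested in brackets, Dnmt3a had 7 of the 27 (142), Dnmt1 6 (86), Tet3 6 (113) and Tdg 3 (24). Dnmt3l had 2 (40), Tet2 2 (64) and Zfp57 1 (14), while Uhrf1 (35), Dnmt3b (52) and Tet1 (109) had none. The Dnmt1, Uhrf1, Dnmt3l, Tet1 and Tet3 intervals hold no single-nucleotide variant of the authors' list, and 14 of the 27 windows lay in them, of 383 tested there. The other 13 lay among 296 windows of the 5 genes with variants, which had 198 in all, 105 of them in Tdg and 1 in Tet2.

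The strains differed at Dnmt3a start 6, that of the short isoform. B6 sires had 14.0%, 16.1% and 18.0%, and B6 dams 15.5%, 10.7% and 17.2%. C3 sires had 4.31%, 2.84% and 5.92%, and C3 dams 8.36%, 6.50% and 8.77%. No B6 parent overlapped a C3 parent. The promoter was higher in B6 by 9.15 points (log2 ratio 1.53 ± 0.23, adjusted p 1.01e-05 in limma). B6C3F1 males had 9.39%, 13.2% and 14.5%, B6C3F1 females 12.0%, 14.4% and 14.5%, C3B6F1 males 5.01%, 15.4% and 5.19%, and C3B6F1 females 10.9%, 14.4% and 10.1%. The F1 mean was 11.6%, between 15.3% in B6 and 6.12% in C3, with single F1 animals across the whole span. Of the 66 CpGs between positions 3891001 and 3892500, around this start, 57 were higher in B6, 29 of them by at least 10 points. That run of windows was chosen for its strain difference, so these counts describe it and are not a separate result. The same counts over all CpGs were not made. The window chr12:3891501-3892000 there differed by 13.4 points (adjusted p 6.21e-06), with 15.4% to 27.1% in B6, 3.08% to 11.4% in C3 and 8.30% to 19.9% in the F1 animals. Depth was 8.25 to 21.3 reads per CpG over the promoter. Other Dnmt3a sequence went the other way, as at chr12:3831501-3832000, where B6 had 65.2% to 70.8% and C3 76.3% to 82.9% (difference -10.8 points, adjusted p 2.28e-04).

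In all, 6 of 29 member promoters differed by strain at an adjusted p below 0.05, against 13.4% of all promoters. They were 4 higher in B6 and 2 higher in C3, where 4.81% and 8.63% of all promoters were called. Higher in B6, besides Dnmt3a start 6, were both Tdg starts and Zfp57 start 2. At Tdg start 1 the B6 sires had 2.22%, 3.78% and 4.30%, the B6 dams 2.44%, 2.42% and 4.22%, the C3 sires 0.978%, 0.833% and 1.33%, and the C3 dams 0.840%, 1.39% and 0.874%. The parents did not overlap, and the difference was 2.19 points (log2 ratio 1.56 ± 0.23, adjusted p 7.11e-06), so that a promoter under 5% in every animal still differed. Tdg start 2, which shares most of these CpGs, differed by 1.02 points (adjusted p 0.0263), and that call was lost without B6 male 1 or 3, B6 female 1 or 3, C3 male 2 or 3, or C3 female 3 (adjusted p up to 0.101). Zfp57 start 2 differed by 6.11 points (adjusted p 0.00207), with 19.8%, 15.0% and 22.2% in B6 sires, 14.2%, 13.0% and 11.4% in B6 dams, and 8.03% to 13.8% over the C3 parents, which the B6 dams overlapped. Tet2 start 2 (difference -3.33 points, adjusted p 0.00345) and Dnmt3a start 9 (-4.89 points, adjusted p 0.00631) were higher in C3.

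Dnmt1 differed next to its start. In an intronic window 1.07 kb from the gene start, B6 sires had 10.5%, 12.4% and 8.90%, B6 dams 9.09%, 7.72% and 12.3%, C3 sires 21.5%, 21.8% and 16.2%, and C3 dams 21.1%, 26.9% and 20.3%. Every C3 parent lay above every B6 parent, by a difference of -11.1 points (B6 minus C3, adjusted p 7.36e-05). Of its 18 CpGs 17 were higher in C3. The window was picked for its strain difference, so the CpG count describes it and is not a separate result. The 12 F1 animals, at 8.31% to 16.6% with a mean of 11.8%, stood nearer to B6 than to C3 in 11 cases. In the other Dnmt1 windows with an adjusted p below 0.05 by strain, 4, 3, 2, 6 and 8 of the 12 were nearer to B6. Over the 27 windows the median F1 position, from 0 at the C3 mean to 1 at the B6 mean, was 0.526. On the far side of the start, at chr9:20757501-20758000, the difference was -11.9 points (adjusted p 0.0169), with 37.8% to 59.2% in B6 and 51.4% to 65.0% in C3. Without B6 male 3, B6 female 3 or C3 male 1 its adjusted p was up to 0.0789. Of the 27 windows, the one with the largest strain difference was in Zfp57, chr17:37139001-37139500. B6 parents had 31.8%, 30.0%, 40.3%, 25.4%, 38.9% and 26.4%, and C3 parents 18.0%, 13.2%, 24.3%, 21.1%, 16.7% and 16.9%, sires first. The groups did not overlap, and the difference was 13.8 points (adjusted p 0.00167), at 3.78 to 16.4 reads per CpG.

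**Figure D5:**
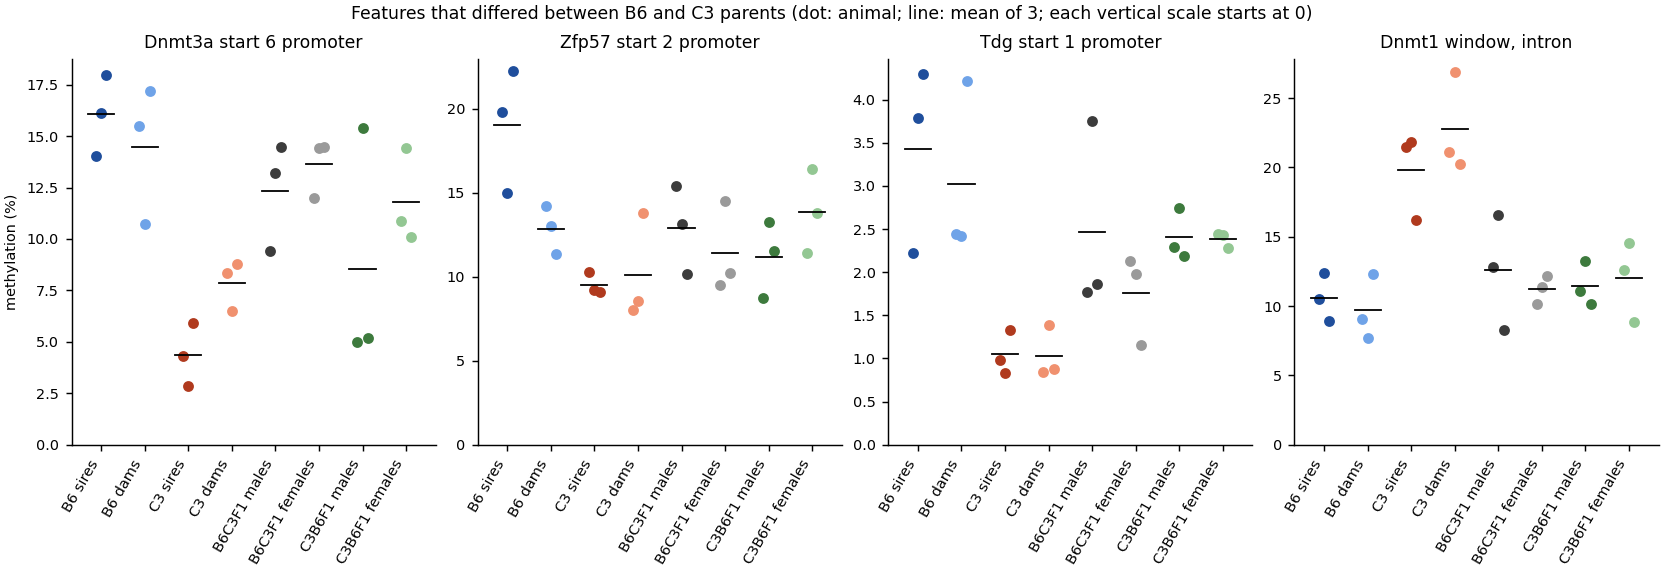
Methylation (percent, vertical axes starting at 0 with a scale of their own) of 4 features that differed between B6 and C3 parents, in the 8 groups. Dots are animals and lines means of 3. Dnmt3a start 6 and Tdg start 1 are higher in B6 than in C3 parents without overlap, Zfp57 start 2 is higher in B6 with overlap, and the Dnmt1 window is higher in C3.

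Of the 10 bodies, 3 differed by strain, against 40.9% of all bodies, 5.26% higher in B6 and 35.6% higher in C3. Tet3 (86.5% in B6 and 88.2% in C3, adjusted p 5.43e-05) and Dnmt1 (89.7% and 90.8%, adjusted p 9.38e-04) were higher in C3. They differed by -1.62 and -1.10 points, B6 minus C3, beside a median of -0.898 points over all bodies. Tdg was higher in B6, with 87.9% against 85.4% (adjusted p 4.14e-04). Summed read counts over the Tdg body were 37084 in the B6 parents and 23842 in the C3 parents. Over the whole interval, which holds both Tdg starts, they were 53386 and 35679, and 85.0% of its CGs in mm9 had counts. In the Dnmt1 body they were 142568 and 132135. Whether the lower depth in C3 bears on the Tdg differences was not tested.

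The other comparisons gave no called member window, namely F1 males with F1 females (0.051% of all windows called), sires with F1 males (0.00227%), B6C3F1 with C3B6F1 animals (0.000686%) and the dependence of the sire-dam difference on strain (0.00151%). In limma these had 48, 25, 44 and 43 member windows at an unadjusted p below 0.05, or 7.07%, 3.68%, 6.48% and 6.33% of the 679, beside 7.02%, 6.26%, 6.69% and 5.42% of all windows. The test for any difference among the 8 groups called 3 member windows with a range of at least 20 points, against 1.2% of all windows, and 4 without C3B6F1 male 1. A range of at least 10 points gave 13, against 3.39%. The 3 were the Dnmt3a window at 3837001 (range 26.2 points, adjusted p 4.76e-06), the Tet3 window at 83358501 (25.6 points, adjusted p 6.47e-04) and a window in a Dnmt3a intron at chr12:3871501-3872000 (25.1 points, adjusted p 0.0290). At that intronic window C3B6F1 males were lowest, with 37.6%, 39.1% and 21.9%, and C3 dams highest, with 58.1%, 64.6% and 51.3%. The remaining animals lay from 36.5% to 60.0%, and no single contrast between groups was called there. The window lost its adjusted p below 0.05 without B6 male 1 or 2, C3 female 1 or 2, or C3B6F1 male 3 (adjusted p up to 0.149), in a quasi-binomial test (0.186) and when windows of at least 3 CpGs were tested.

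Genes that work beside the 10 were described by the same fits, over a list of 36 readers, recruiters, repair enzymes and enzymes of methyl-group metabolism. By strain 11 of their 58 promoters were called, 6 higher in B6 and 5 higher in C3, with a median difference of -0.133 points, where 13.4% of all promoters were called, 4.81% higher in B6 and 8.63% higher in C3. The largest was at start 2 of Shmt1, a serine hydroxymethyltransferase of folate metabolism, which was 31.5 points higher in B6. Between sires and dams 2 of the 58 were called, Zfp445 start 1 (-14.3 points) and Shmt1 start 2 (9.53 points), against 0.887% of all promoters. Between dams and virgin females 0 were called, against 0.216%, with a median of 0.0225 points. Of their 36 bodies 18 were called by strain, 4 higher in B6 and 14 higher in C3, against 40.9% of all bodies, 5.26% higher in B6 and 35.6% higher in C3. The Shmt1 body, unlike its start 2, was higher in C3 (-6.54 points, B6 minus C3). Between sires and dams 5 were called, all lower in sires, against 17.3% of all bodies, most of which (13.6% of all) were higher in sires. The largest body differences were those of Dppa3 by strain (-12.6 points) and of Zfp445 between sires and dams (-7.95 points). The Zfp445 body was also lower in F1 males, at 86.6% in B6C3F1 and 87.7% in C3B6F1, than in virgin F1 females, at 93.4% and 92.9%.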

How the data were processed

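Counts of methylated and unmethylated reads per CpG and animal were deposited by the authors, who aligned bisulfite reads to mm9 with Bismark 0.7.8 and Bowtie 0.12.8 and removed duplicates with Bismark's own tool. They kept CpGs present in mm9 and in both strains, merged strands and did not pool animals. All 48 columns of counts were used. FOXA1 ChIP samples were not analysed here. A window, promoter or body was a sum of counts over its CpGs, and its level is a percent, whose precision depth sets. The fits used limma 3.58.1 in R 4.3.3 on log2 ratios of methylated to unmethylated counts with a pseudocount of 1, over all 24 animals with a mean for each of 8 groups, trended and robust variances and Benjamini-Hochberg adjusted p over all autosomal windows (1456902), promoters (28296) or bodies (19379) tested. Promoters and bodies needed an adjusted p below 0.05, windows also 20 points. Differences are between group means in percentage points. The study's own callers, DSS and Metilene, were not run. Replicates were separate mice. The fitting functions were tested on simulated window counts with changes between sires and dams. Gene models were those of GENCODE for mm9. Named were all 10 members, every called window if at most 5, else the 3 largest per direction, every promoter, and windows under 20% in all animals. For strain, windows of at least 10 points were also named, and some single windows with an adjusted p below 0.05, chosen after their values were seen. Some genes of the related list and a sequence are not reported here. The members and gene lists were chosen with earlier results of these data known. Alternatives were another test, other filters on reads and CpGs, a grid moved by 250 bp, variants left out, fewer groups, a replicate block and each animal left out.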

Additional observations from a re-analysis of the deposited data

How the results depend on the processing

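Over 26 named differences there were 804 results under alternative settings. Of these, 737 kept the direction and the side of the threshold. Another 67 kept the direction with an adjusted p of 0.05 or more, and 0 reversed. That tally leaves out the moved grid, and most of its settings omit a single animal. Omitting an F1 animal cannot change a strain difference in points, only its adjusted p. The sire-dam and dam-virgin differences of the Dnmt3a window at 3837001 kept an adjusted p below 0.05 throughout. With a minimum difference of 10 points the member windows called were 6 by strain, 3 between sires and dams, 3 between dams and virgin females and 13 among any of the 8 groups. With the grid moved by 250 bp and the minimum at 20 points the counts were 0 for sires and dams, 0 for dams and virgin females and 5 for any of the 8 groups. There the window chr12:3837251-3837750 still differed, by 14.5 and -14.3 points (adjusted p 0.00185 and 0.0116). Leaving out single animals gave 0 to 1 called windows between sires and dams (0 without B6 male 1 or B6 female 2), 0 to 1 between dams and virgin females (0 without B6 female 2, C3 female 2, B6C3F1 female 3 or C3B6F1 female 2), 2 to 4 for any of the 8 groups, and 0 to 1 gene bodies between sires and dams. It gave 5 to 7 promoters and 3 to 4 bodies by strain. The Tet3 window at 83358501 passed the adjusted p, without reaching 20 points, in the comparison of sires and dams except when fitted as 2 groups of 6 (adjusted p 0.0588), and in that of dams and virgin females except in 6 settings, with an adjusted p of up to 0.151. The cause was not tested. Per the study's methods the animals came from families of sire, dam, son and daughter, and the labels do not say whether a replicate number marks a family. Animals of different groups with the same number had correlated deviations of -0.00880 to 0.0649 over windows, -0.158 to 0.276 over promoters and -0.0845 to 0.287 over gene bodies. Of 84 such pairs 0, 8 and 8 were over 0.1, the highest being C3B6F1 male 1 and female 1. These pairs include animals of different crosses, which cannot share a family, so they do not settle whether a number marks a family. The numbers were not used as pairs. A replicate block gave 4 windows for any of the 8 groups and 4 bodies by strain, and left the other counts of called features within 1.5 times. With it, member bodies at an unadjusted p below 0.05 between dams and virgin females went from 1 to 2 in limma. Depth limits windows of few reads, such as that of Zfp57.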
